A study of Mus musculus with 8 samples.

Results

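Immediate early genes are switched on within minutes of a stimulus by factors that the cell already holds. The 10 examined here in cultured mouse cerebellar cells were Fos, Fosb, Junb, Egr1, Egr2, Nr4a1, Arc, Ier2, Dusp1 and Atf3, out of 18193 genes on the array. They were taken by name, as every probe-set (a group of short probes that together read 1 transcript) annotated to a single one of these gene symbols. All 10 genes had a probe-set, 11 probe-sets in all, since Egr2 had 2. After a filter on low signals that kept 18015 of 45037 probe-sets, 8 of the 10 genes (9 probe-sets) were left, among 10194 genes kept overall.

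The study asked which genes respond to T3, the active thyroid hormone, in cerebellar neurons of Wild-type mice. Pooled cerebella of newborn pups were dissociated and kept in serum-free medium for 48 h. The cultures were then given T3 at 0.1 µM or left untreated for 6, 16, 24 or 48 h. By the paper's methods, the untreated cultures had the same medium changes, without T3. The sample labels and the methods give different ages for the pups within the first postnatal week. The 8 groups were thus T3 6 h, T3 16 h, T3 24 h, T3 48 h, untreated 6 h, untreated 16 h, untreated 24 h and untreated 48 h, each with 1 culture on 1 array. The T3 and untreated cultures of a time point came from the same batch of cells. Whether time points shared a batch is not given in the sources used here, so the hours of culture and the cell preparation cannot be told apart. No value below has a replicate of its own condition. The p-values measure the scatter of these 8 cultures, or of their paired differences, around each fit across time points. They do not measure the spread between cultures of the same condition. In the test of the T3 effect, a T3 difference that varies between time points counts as scatter.

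Each value is the deposited signal intensity, a brightness on a linear scale scaled by the authors so that the trimmed mean was 100 on each array (median signal 14.8 to 17.7). Signals below 1 were set to 1 for logarithms, and probe-sets passed the filter with a mean log2 signal at or above that of a signal of 31.0. Klf9, a known T3 target, had signals of 3099.5 at 6 h, 2736.9 at 16 h, 3131.3 at 24 h and 2267.6 at 48 h with T3, against 1220.0, 1508.2, 1235.2 and 1497.6 without. Klf9 was higher with T3 at all 4 time points. The granule neuron markers Neurod1 and Zic1 were measured on all 8 arrays, with lowest signals of 266.3 for Neurod1 and 1574.0 for Zic1, both on the untreated 48 h array. Gabra6, which marks mature granule neurons, stayed between 2.7 and 12.3. The untreated 24 h array stood apart from the other arrays, and not in glial genes alone. The summed signal of 9 kept astrocyte and Bergmann glia markers was 9420 on the untreated 24 h array and 4930 on the T3 24 h array. On the other 6 arrays that sum lay between 2950 and 4940. Over all kept probe-sets, 18.7% were highest and 19.0% lowest on the untreated 24 h array, the largest shares of the 8 arrays. In such mixed cultures a change in the number of cells of a type and a change in the RNA of each cell cannot be told apart.

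Calcium entry, growth factors and stress reach these genes through kinases that act on CREB, which binds the cAMP response element (CRE), and on SRF with its ternary complex partners, which bind the CArG box. Most members encode transcription factors: Fos, Fosb and Junb are subunits of AP-1, Egr1 and Egr2 are zinc finger factors, Nr4a1 is an orphan nuclear receptor and Atf3 is a stress-induced member of the CREB/ATF family. Dusp1 is a phosphatase that switches off MAP kinases, and Arc is an effector at synapses. In neurons these transcripts are widely used as marks of recent activity, and dissociation and changes of medium also induce them in many cell types.

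The 250 bases before the start site of Fos, Nr4a1, Dusp1 and Atf3 are shown because the first 3 had similar signal profiles over the arrays and Atf3 had the largest T3 difference among the kept members. They come from RefSeq (GRCm38.p6), which gave windows for 7 of the 10 members and none for Egr1, Ier2 and Arc. Capitals mark the CRE core TGACG, on either strand (CGTCA when it lies on the other).
Fos, chr12:85473640-85473889 (+ strand): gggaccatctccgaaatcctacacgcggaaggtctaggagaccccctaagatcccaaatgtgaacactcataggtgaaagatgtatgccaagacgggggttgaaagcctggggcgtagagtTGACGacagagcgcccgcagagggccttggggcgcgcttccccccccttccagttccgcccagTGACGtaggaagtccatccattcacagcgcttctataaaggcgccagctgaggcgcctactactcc
Nr4a1, chr15:101266596-101266845 (+ strand): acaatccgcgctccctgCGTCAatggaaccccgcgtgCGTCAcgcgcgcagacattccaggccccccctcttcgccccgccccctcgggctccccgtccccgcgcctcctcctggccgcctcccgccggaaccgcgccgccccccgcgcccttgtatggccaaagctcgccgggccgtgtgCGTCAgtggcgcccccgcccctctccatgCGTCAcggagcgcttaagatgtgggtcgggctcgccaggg
Dusp1, chr17:26508473-26508722 (- strand): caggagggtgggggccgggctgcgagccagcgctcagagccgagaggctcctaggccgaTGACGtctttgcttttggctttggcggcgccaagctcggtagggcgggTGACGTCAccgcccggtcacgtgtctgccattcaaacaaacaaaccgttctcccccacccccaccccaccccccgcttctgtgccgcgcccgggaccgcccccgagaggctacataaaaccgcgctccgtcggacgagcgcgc
Atf3, chr1:191183334-191183583 (- strand): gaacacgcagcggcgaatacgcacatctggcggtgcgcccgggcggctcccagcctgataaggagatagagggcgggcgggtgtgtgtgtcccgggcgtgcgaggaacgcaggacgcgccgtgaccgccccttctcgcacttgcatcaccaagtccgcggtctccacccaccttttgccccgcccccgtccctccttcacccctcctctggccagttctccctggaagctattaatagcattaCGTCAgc
All 7 members with a window had at least 1 such core, in 9 of their 11 windows (Egr2 has 5 start sites), against 17.8% of all 32851 windows of the same length. In Fos the cores began at positions -129 and -66 from the start. Nr4a1 had 4 of them, the nearest at -40. The full palindrome TGACGTCA, which holds the core on both strands, was found in Dusp1 alone, at -143, and in 1.55% of all windows. Within these 250 bases a CArG box was found in Egr2 alone among the 7 members, in 4 of its 5 windows, and in 1.47% of all windows. Bases further upstream were not searched, so the other members may hold this motif there. The 2 boxes of Egr2 are shown in capitals within 30 bases each, because Egr2 is the one member with this motif here.
Egr2, upstream CArG box, chr10:67537484-67537513 (+ strand): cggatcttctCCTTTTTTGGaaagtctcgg
Egr2, downstream CArG box, chr10:67537787-67537816 (+ strand): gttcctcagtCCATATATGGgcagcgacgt
The hexamer AGGTCA that T3 receptors bind was found on neither strand in any of the 11 windows, against 14.0% of all windows. With so few windows, 5 of them from Egr2, this absence is near the background. Variants of the hexamer and more distant bases were not searched. These matches are descriptions of the letters in the windows, and binding was not measured.

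Among the AP-1 subunits, Fos was bright and moved by several fold between arrays. Its signal with T3 was 775.1 at 6 h, 207.9 at 16 h, 1275.2 at 24 h and 565.6 at 48 h. Without T3 it was 1139.8 at 6 h, 218.1 at 16 h, 528.6 at 24 h and 267.3 at 48 h. Both 16 h arrays were the lowest of the 8, and the T3 and untreated ranges overlapped widely. T3 over untreated was 0.68-fold at 6 h, 0.953-fold at 16 h, 2.41-fold at 24 h and 2.12-fold at 48 h. Fos was thus lower with T3 at the 2 early time points and higher at the 2 late ones.

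Junb, which partners Fos in AP-1, was dimmer and had a different course. With T3 its signal was 41.6 at 6 h, 51.1 at 16 h, 66.1 at 24 h and 95.0 at 48 h. The untreated signals were 32.9, 41.9, 49.0 and 100.9 at the same hours. Both 48 h arrays were the highest and each treatment kept the order of the hours, while the T3 and untreated ranges overlapped. T3 over untreated was 1.26-fold at 6 h, 1.22-fold at 16 h, 1.35-fold at 24 h and 0.942-fold at 48 h. Fosb, whose product also dimerizes with Jun proteins, did not reach the filter. Its signal lay between 1.5 and 10.7 with T3 and between 5.1 and 8.8 without, below the median signal of each array, so no fold is drawn from it.

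Egr1 was among the bright members and differed little with T3. With T3 its signal was 315.4 at 6 h, 372.1 at 16 h, 773.2 at 24 h and 525.6 at 48 h. Without T3 it was 294.3, 498.7, 628.2 and 562.0. Both 6 h arrays were the lowest and both 24 h arrays the highest. T3 over untreated ran from 0.746-fold at 16 h to 1.23-fold at 24 h.

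Egr2, the related factor best known from hindbrain patterning and Schwann cell myelination, was read by 2 probe-sets that did not give the same T3 differences. The brighter had signals of 35.4, 23.3, 60.3 and 72.0 with T3 at 6, 16, 24 and 48 h, against 29.6, 28.0, 29.7 and 79.4 without. The dimmer had 19.2, 35.7, 26.3 and 64.2 with T3, against 33.4, 25.3, 24.8 and 48.0 without. Both probe-sets were highest on the 48 h arrays. At 24 h T3 over untreated was 2.03-fold by the brighter probe-set and 1.06-fold by the dimmer. The signs were opposite at 6 h (log2 0.26 by the brighter, -0.80 by the dimmer), at 16 h (-0.27 and 0.50) and at 48 h (-0.14 and 0.42). The T3 difference of Egr2 therefore depends on which probe-set is read, and several of these signals lie near the filter.

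Nr4a1 followed the course of Fos at a lower signal. With T3 it was 61.9 at 6 h, 38.7 at 16 h, 95.1 at 24 h and 60.7 at 48 h. The untreated signals were 70.1, 29.4, 39.3 and 52.3. The T3 24 h array was the highest of the 8 and the untreated 16 h array the lowest. T3 over untreated was 0.883-fold at 6 h, 1.32-fold at 16 h, 2.42-fold at 24 h and 1.16-fold at 48 h.

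Ier2, a nuclear protein of the immediate early response, had the same arrays at its extremes. With T3 its signal was 259.0 at 6 h, 142.4 at 16 h, 506.1 at 24 h and 127.5 at 48 h. Without T3 it was 231.3, 100.6, 208.8 and 172.4. T3 over untreated was 1.12-fold, 1.42-fold, 2.42-fold and 0.74-fold in that order of hours. Ier2 was therefore higher with T3 up to 24 h and lower at 48 h.

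Dusp1, the MAP kinase phosphatase, again had its highest signal on the T3 24 h array. With T3 it was 538.0 at 6 h, 210.3 at 16 h, 1029.8 at 24 h and 374.5 at 48 h. The untreated signals were 518.6, 188.4, 579.4 and 563.5. At 16 h both arrays stood lowest, at 0.391-fold of the 6 h array with T3 and 0.363-fold without. T3 over untreated was 1.04-fold at 6 h, 1.12-fold at 16 h, 1.78-fold at 24 h and 0.665-fold at 48 h.

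Arc, the synaptic effector, did not reach the filter. Its signal was 25.0 with T3 and 13.6 without at 6 h, and between 0.8 and 5.6 on the other 6 arrays. Its highest values were thus on both 6 h arrays.

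Atf3 had the largest T3 differences among the kept members, in opposite directions at the last 2 time points. With T3 its signal was 335.9 at 6 h, 319.2 at 16 h, 1264.2 at 24 h and 565.7 at 48 h. Without T3 it was 332.3, 321.2, 353.1 and 1334.2. The T3 and untreated arrays were nearly equal at 6 and 16 h, and the 2 high values lay on the T3 24 h and the untreated 48 h arrays. T3 over untreated was 3.58-fold at 24 h and 0.424-fold at 48 h (log2 1.84 and -1.24). Among all kept probe-sets, 0.2% had a larger difference at 24 h and 0.178% a smaller one at 48 h.

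**Figure D1:**
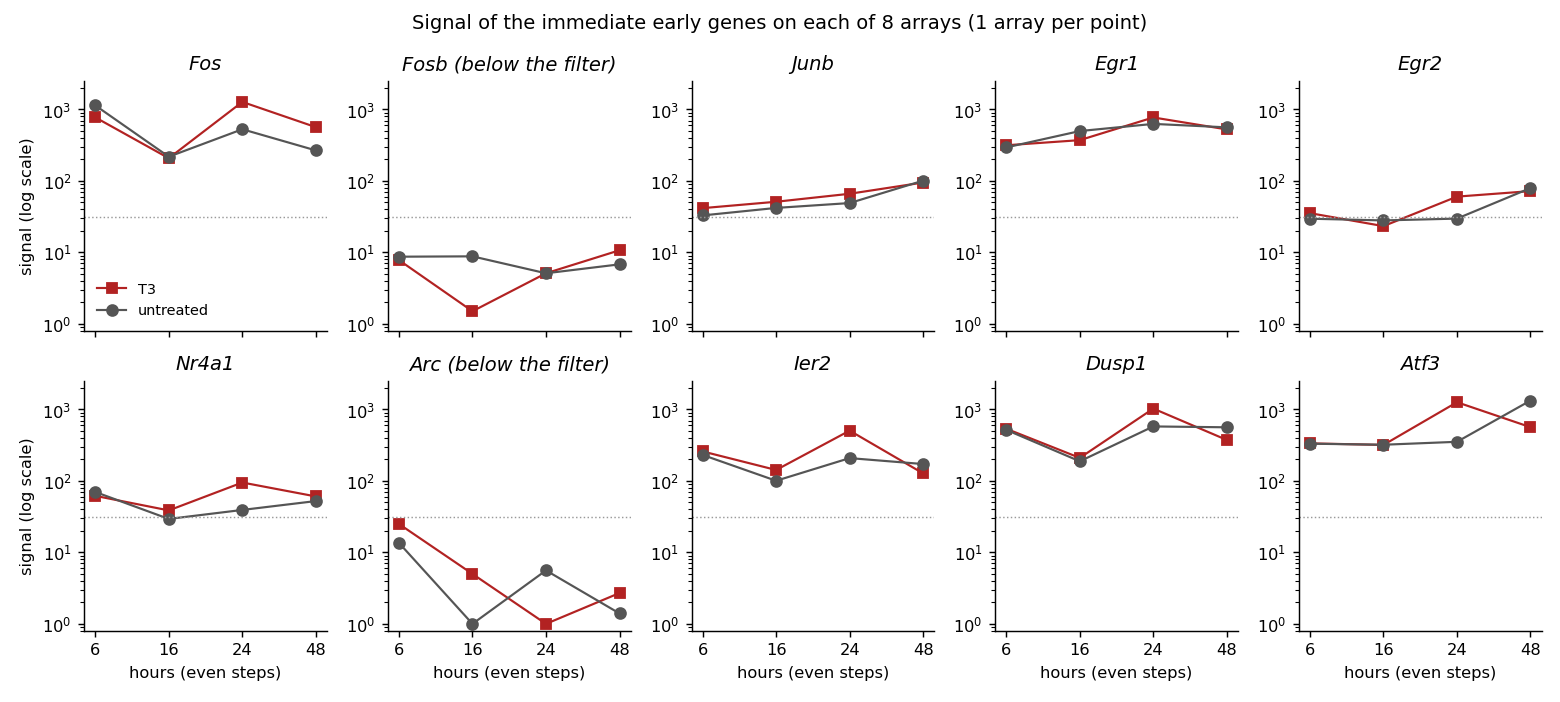
Signal of the 10 immediate early genes (log axis, signals below 1 drawn at 1) at 6, 16, 24 and 48 h, T3 as red squares and untreated as grey circles, 1 array a point and the brightest probe-set of each gene. The dotted line is the signal of 31.0 that the mean of a kept probe-set had to reach; Fosb and Arc lie below it, and Fos, Egr1, Nr4a1, Ier2 and Dusp1 are highest on the T3 24 h array.

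At 24 h, all 8 kept members were higher with T3, and 5 of them by more than 2-fold: Fos, Nr4a1 and Ier2 (2.41- to 2.42-fold), Egr2 (2.03-fold by its brighter probe-set) and Atf3 (3.58-fold). The background at 24 h was 3.67% of all kept probe-sets past 2-fold upwards and 5.16% downwards. The median log2 difference was 1.15 over the members and 0.05 over all kept probe-sets. With 1 array a side there is no test. With 32 added to every signal, which damps low signals, 3 members stayed over 2-fold (Fos at log2 1.22, Ier2 at 1.16 and Atf3 at 1.75), against 1.29% of all kept probe-sets, while Nr4a1 stood at 0.83 and Egr2 at 0.58.

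Since the untreated 24 h array stood apart, the members were also set against the mean log2 signal of the other 3 untreated arrays. This comparison was chosen after the data were seen, and hours and preparation differ in it too. The T3 24 h array was higher in 8 of 8 kept members, by more than 2-fold in 4: Ier2 (log2 1.67), Fos (1.65), Dusp1 (1.44) and Atf3 (1.28). The background here was 3.91% of all kept probe-sets. The untreated 24 h array itself lay within 2-fold of that mean in all 8 kept members, between -0.56 for Atf3 and 0.61 for Dusp1, and 4 of the 8 were above it. Over all kept probe-sets 7.98% were more than 2-fold above that mean and 4.25% more than 2-fold below it, so 0 of 8 members is near the background. Of the 8 kept members, 5 had their highest signal on the T3 24 h array and the other 3 on the untreated 48 h array (Egr2 by its brighter probe-set). Over all kept probe-sets 8.93% were highest on the T3 24 h array and 14.5% on the untreated 48 h array.

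Markers of other cells also differed within the 24 h pair, beside the background of 3.67% of all kept probe-sets over 2-fold higher with T3 and 5.16% lower. Of 9 kept astrocyte and Bergmann glia markers 6 were over 2-fold lower with T3 (median log2 -1.79), and of 4 kept oligodendrocyte lineage markers 2 were (median -0.78). Of 11 kept granule neuron markers 4 were over 2-fold lower with T3 (median -0.44), with a summed signal of 7840 on the T3 and 11900 on the untreated array. Of 11 kept vascular and meningeal markers 2, Pdgfrb and Acta2, were over 2-fold higher (median 0.38), with sums of 10400 with T3 and 7200 without. The 6 kept microglia markers had their lowest sums on both 24 h arrays, 140 with T3 and 134 without. The part of these differences in the values of the members was not tested.

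At 6 and 16 h none of the kept members differed by more than 2-fold. The medians over the members were log2 0.08 at 6 h and 0.07 at 16 h, and the background was 0.527% higher and 0.328% lower at 6 h and 0.433% higher and 0.305% lower at 16 h. At 48 h 2 of 8 kept members were beyond 2-fold, Fos higher and Atf3 lower with T3, against a background of 0.833% higher and 0.344% lower. With 32 added, Fos was at log2 1.00 and no longer over 2-fold, and Atf3 at -1.19. The median over the members was -0.12 at 48 h, with Fos and Nr4a1 higher with T3 and the other 6 lower.

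**Figure D2:**
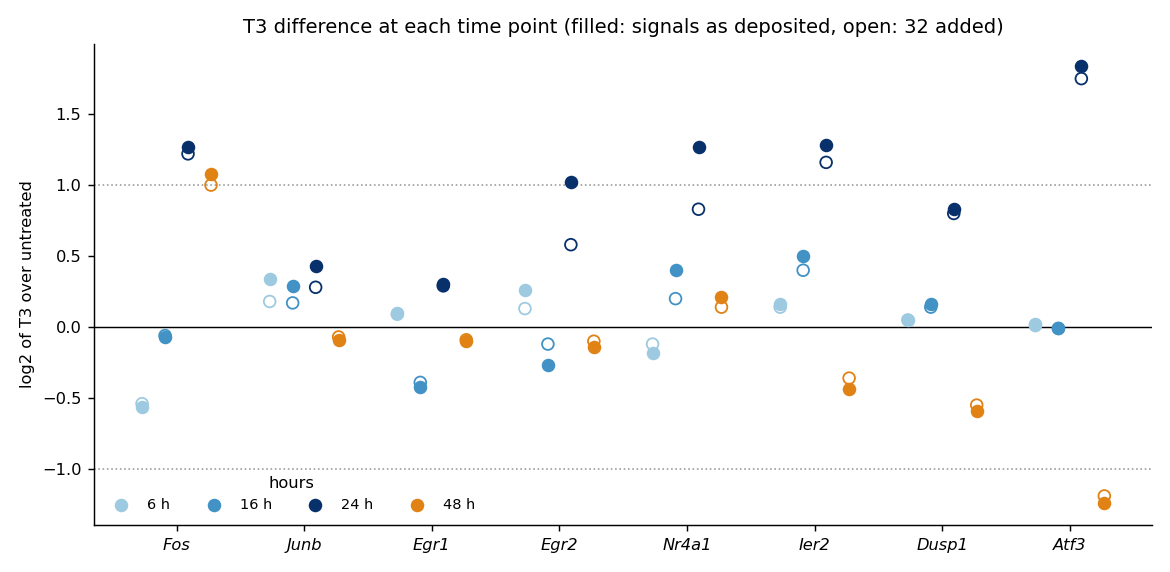
Log2 of T3 over untreated for the 8 kept members at 6, 16, 24 and 48 h, from the deposited signals (filled) and with 32 added (open), 1 array against 1 array at each point. Dotted lines mark 2-fold; at 24 h 5 filled and 3 open points lie above the upper one, and at 48 h Atf3 lies below the lower one at -1.24.

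Over the 4 pairs of arrays, with the time point as a block, limma called none of the members for T3 after Benjamini-Hochberg adjustment over all kept probe-sets. The background was 0 of 18015 probe-sets (0.0%), with 985 at an unadjusted p under 0.05, none of them a member. Klf9, the known T3 target, was not called either (log2 1.04, SE 0.13, limma adjusted p = 0.306). The lack of a call therefore does not show the lack of a T3 effect. The largest mean T3 differences of the members were log2 0.43 for Fos (SE 0.29, adjusted p = 0.818) and 0.43 for Nr4a1 (SE 0.24, adjusted p = 0.815), with 2 and 3 of 4 pairs higher with T3. For Ier2 it was 0.38 (95% interval -0.21 to 0.96) and for Atf3 0.15 (-0.81 to 1.11). Egr1 had the narrowest interval, -0.34 to 0.28. The median over the 8 kept members was 0.23, against 0.01 over all kept probe-sets, and 7 of 8 were positive. Without the 24 h arrays the median over the members was 0.01, 4 of 8 were positive, and Atf3 stood at -0.41, Dusp1 at -0.13 and Egr2 at -0.05.

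The change with the hours of culture was fitted as a slope on the log2 of the hours over all 8 arrays, with treatment as a covariate. Of the 9 kept member probe-sets 1 was called, that of Junb, against 19.2% of all kept probe-sets called and 10.6% called as rising. Of 5 kept reference genes 3 were called as rising too (Hprt, Gusb and B2m). Among them Gusb had a slope of 0.43 (SE 0.11, limma adjusted p = 0.0323), close to that of Junb. Junb rose by log2 0.46 for each doubling of the hours (SE 0.09, adjusted p = 0.0183 in limma). In its signals the 48 h array was 2.28-fold of the 6 h array with T3 and 3.07-fold without. The call was lost without the 6 h arrays (limma adjusted p = 0.615) or the 48 h arrays (0.297), with the untreated arrays alone (0.428), with the mean of each time point (0.224) and with hours as a random block (0.0866), the last 2 of which allow arrays of the same hours to deviate together.

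The other members had slopes that did not pass. Those of Atf3 (log2 0.49, SE 0.21, limma adjusted p = 0.128), the brighter Egr2 probe-set (0.41, SE 0.17, 0.114) and Egr1 (0.33, SE 0.10, 0.0621) were positive with intervals above 0. The dimmer Egr2 probe-set had a slope of 0.33 (interval -0.02 to 0.68, adjusted p = 0.153). Without the 24 h arrays Egr1 (0.28, adjusted p = 0.0106) and Atf3 (0.47, adjusted p = 0.0452) passed beside Junb, in a fit that called 43.2% of all kept probe-sets, so 3 of 9 member probe-sets is no more than the background. Fos had a slope of -0.31 (SE 0.29, adjusted p = 0.458) and Ier2, Nr4a1 and Dusp1 of -0.14, -0.04 and 0.04. The median slope of the members was 0.19, against -0.03 over all kept probe-sets. Of 11 kept vascular and meningeal markers 8 rose with the hours, as Junb did: Col1a1, Col1a2, Col3a1, Dcn, Lum, Pdgfrb, Acta2 and Igf2. The endothelial markers of that list, Cldn5, Kdr and Vwf, were not called (slopes -0.09, 0.14 and -0.09). The summed signal of the 11 was 15500 on the T3 48 h and 2100 on the T3 6 h array, with 16400 and 2600 untreated. Of the 11 kept granule neuron markers 5 fell. Their summed signal was 11000 on the T3 6 h and 3150 on the T3 48 h array, with 11500 and 2380 untreated. The background was 10.6% of all kept probe-sets rising and 8.56% falling. With hours as a random block 5 vascular and meningeal markers and 1 granule neuron marker were left, against 1.75% of all kept probe-sets rising and 0.422% falling. With the mean of each time point 0 of either were left. The part of these cells in the slope of Junb was not tested.

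A T3 difference that changes with the hours was tested in limma on the 4 paired differences. None of the members was called, and neither was any of the 18015 probe-sets (0.0%; 245 at an unadjusted p under 0.05). Fos had the smallest p among the members, with a T3 difference that grew by log2 0.62 for each doubling of the hours (SE 0.17, unadjusted p = 0.0101, adjusted p = 1.0).

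**Figure D3:**
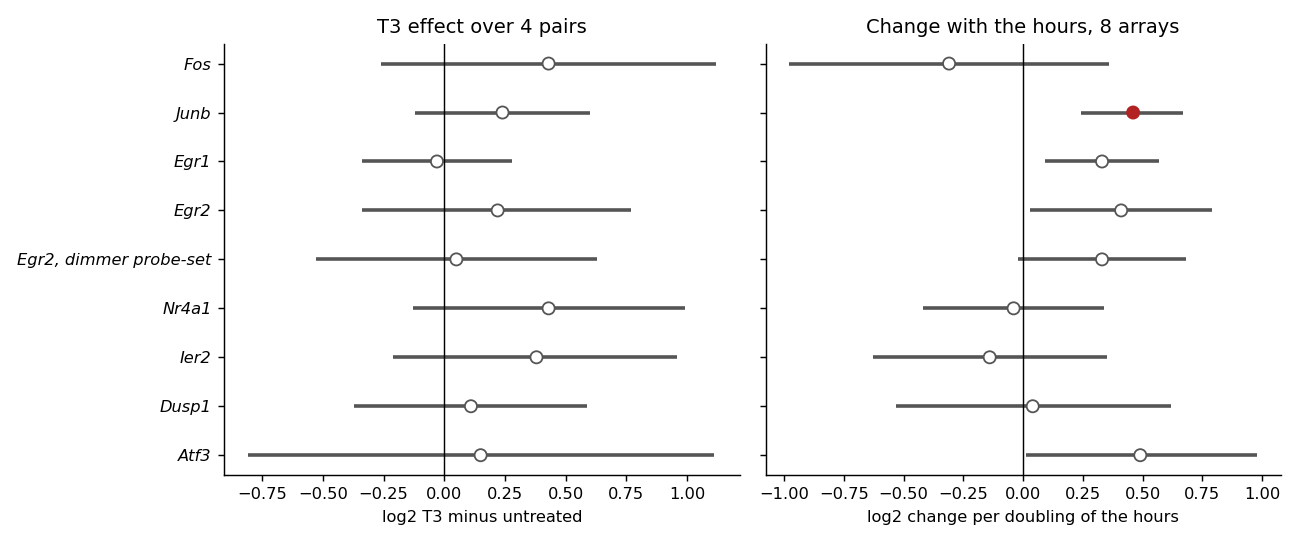
Estimates of limma with 95% intervals for the 9 kept member probe-sets, as the mean log2 difference of T3 minus untreated over 4 pairs (left) and as the log2 change per doubling of the hours over 8 arrays (right). Red marks an adjusted p under 0.05, reached by Junb alone, at 0.46 in the right panel.

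The members did not share a single course. Over the 8 arrays the log2 signals of Fos, Nr4a1, Ier2 and Dusp1 correlated with each other at r = 0.78 to 0.88, and the lowest signal of each was on a 16 h array. Atf3, Egr2 and Junb correlated at 0.77 to 0.87 and each was highest on the untreated 48 h array, Egr2 by its brighter probe-set. The dimmer Egr2 probe-set was highest on the T3 48 h array (64.2, against 48.0 untreated). Between the 2 sets the coefficients ran from -0.20 for Fos and Junb to 0.60 for Dusp1 and Atf3, so the sets are not sharply apart. Egr1 was placed in neither set. It correlated at 0.53 to 0.66 with Atf3, Egr2 and Junb, and at -0.01 to 0.37 with Fos, Nr4a1, Ier2 and Dusp1. The median over all 28 pairs of members was 0.535, and 25 were positive. The sets were read off these values, and the 8 arrays are 4 pairs of cultures from shared batches, so the coefficients are a description.

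**Figure D4:**
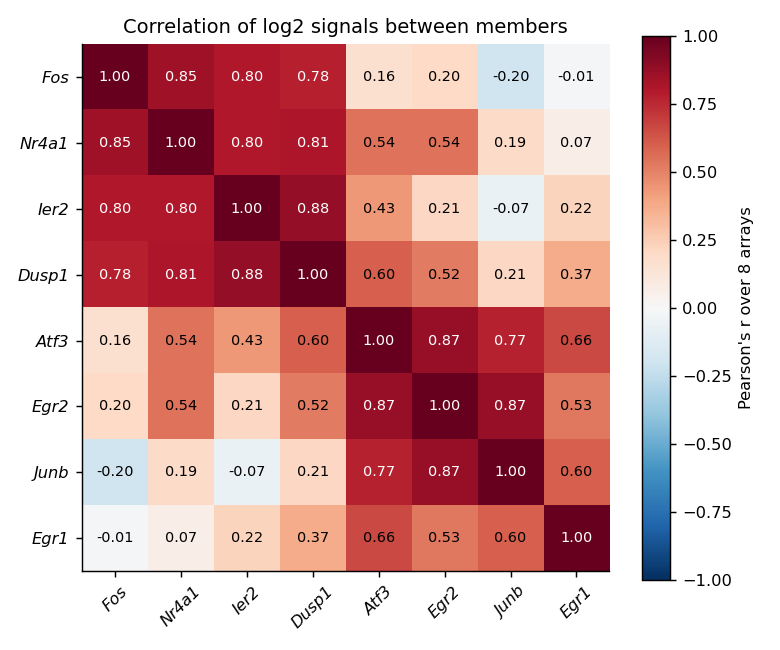
Pearson's r of the log2 signals of each pair of the 8 kept members over 8 arrays. Fos, Nr4a1, Ier2 and Dusp1 form 1 block (0.78 to 0.88) and Atf3, Egr2 and Junb another (0.77 to 0.87), with values between the blocks from -0.20 (Fos and Junb) to 0.60 (Dusp1 and Atf3). Egr1 is in neither block.

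The mean centred log2 signal of the 8 kept members was -0.02, -0.64, 0.96 and 0.19 with T3 at 6, 16, 24 and 48 h, against -0.05, -0.71, -0.07 and 0.35 without. Of 10186 other kept genes, those most like this profile by Pearson's r over the 8 arrays were Rnf121 and Acvr1 (0.94 each), then Ero1b, Tcp11l2, Nck1 and Jun (0.93 each), with Zfp9, Ext1, Aptx and Rps19bp1 at 0.91 to 0.92. Jun, which dimerizes with Fos in AP-1, had signals of 426.7, 357.3, 1308.3 and 405.4 with T3, against 420.1, 267.5, 469.7 and 689.1 without. Its T3 24 h array was the highest, and its T3 difference had opposite signs at 24 h (log2 1.48) and 48 h (-0.77). Most others on this list moved by less: Rnf121 lay between 210.9 and 275.4 with T3 and between 191.8 and 264.7 without.

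Other immediate early factors were taken as a list of 22 genes, of which 18 were kept. At 24 h 8 of the 18 were over 2-fold higher with T3 and none lower, with a median log2 difference of 0.89. The background was 3.67% of all kept probe-sets higher and 5.16% lower. The 8 were Nfil3 (log2 1.72), Jun (1.48), Nr4a2 and Klf4 (1.39 each), Maff (1.21), Klf6 (1.12), Myc and Ier3 (1.10 each). With 32 added 4 stayed over 2-fold: Jun, Nfil3, Klf4 and Ier3. At 48 h only Csrnp1 was beyond 2-fold, lower with T3 at -1.32, and at 6 and 16 h none was. With the hours 7 of the 18 rose in the fit over 8 arrays, among them Fosl2 (slope 0.63) and Klf4 (0.73), and Nr4a3, a relative of Nr4a1, fell by 0.47, against a background of 10.6% rising and 8.56% falling. All of these calls were lost with hours as a random block, a fit that called 2.18% of all kept probe-sets, and with the mean of each time point.

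Of 15 kept genes among 22 other rapidly induced effectors, 4 were over 2-fold higher with T3 at 24 h, against 3.67% of all kept probe-sets. They were Gadd45a (log2 1.41) and Gadd45b (1.14), which act in the response to damage, Ptgs2 (1.29), the inducible cyclooxygenase, and Vgf (1.12), a secreted neuropeptide precursor. With 32 added Gadd45a alone stayed over 2-fold (1.27). Rgs2, a regulator of G protein signalling, was lower, at -1.20, beside a background of 5.16% over 2-fold lower. Dusp4, Dusp5 and Dusp6, phosphatases related to Dusp1, stood at 0.19, -0.15 and 0.60. The activity-regulated genes Bdnf, Nptx2 and Inhba did not reach the filter. Bdnf was still 62.7 on the T3 24 h and 12.8 on the untreated 24 h array (log2 2.29, and 1.08 with 32 added). On the other arrays Bdnf lay between 17.8 and 23.3. At 24 h Inhba stood at log2 1.19 (0.50 with 32 added) and Nptx2 at 0.48 (0.09). With the hours 5 of the 15 rose, Ccn1 and Ccn2 with the steepest slopes (1.06 and 1.31), against 10.6% of all kept probe-sets rising. With the random block 3 calls (Ccn1, Ccn2 and Ptgs2) were left, against 1.75% of all kept probe-sets rising.

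Kinases and factors upstream of the members were mostly within 2-fold at 24 h. Of 25 kept genes none was over 2-fold higher with T3 and 2 were lower, the kinases Rps6ka3 (log2 -1.03) and Rps6ka5 (-1.10), with a median of 0.08, beside the background of 3.67% higher and 5.16% lower. With so few genes, both counts are near the background. Mef2a stood at 0.77, its relatives Mef2c at -0.69 and Mef2d at 0.25, Srf at -0.22 and Creb1 at -0.37. These are levels of transcripts, and the activity of the proteins was not measured. With the hours 1 of the 25 rose (Mapk9, slope 0.34) and 4 fell (Srf, Creb1, Crebbp and Mapk8), against a background of 10.6% rising and 8.56% falling. Of these, Creb1 was left with the random block, in which 0.422% of all kept probe-sets fell.

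Atf3 also belongs to the stress response driven by Atf4. Of 15 kept genes of that list 6 were over 2-fold higher with T3 at 24 h, and none lower: Chac1 (log2 1.66), Trib3 (1.50), Atf5 (1.40), Cebpb (1.38), Ppp1r15a (1.27) and Asns (1.19). The median difference over the 15 was 0.93, and the background at 24 h was 3.67% over 2-fold higher and 5.16% lower. Atf4 itself had a signal of 2471.9 on the T3 24 h array and 1319.4 on the untreated 24 h array. For this list the untreated 24 h array was the lowest of the 8, with a mean centred log2 signal of 0.37 with T3 and -0.61 without, and Atf4 lay between 1775.8 and 2330.6 on the other 6 arrays. Within the list Ppp1r15a, like Atf3, was high on both the T3 24 h array (1034.4) and the untreated 48 h array (1208.5), with 427.9 on the untreated 24 h array. The 5 kept reference genes (Actb, Hprt, Tbp, Gusb and B2m) had a median of 0.20 at 24 h and none beyond 2-fold, though 3 of them rose with the hours in the fit over 8 arrays. None of these 3 calls was left with hours as a random block.

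**Figure D5:**
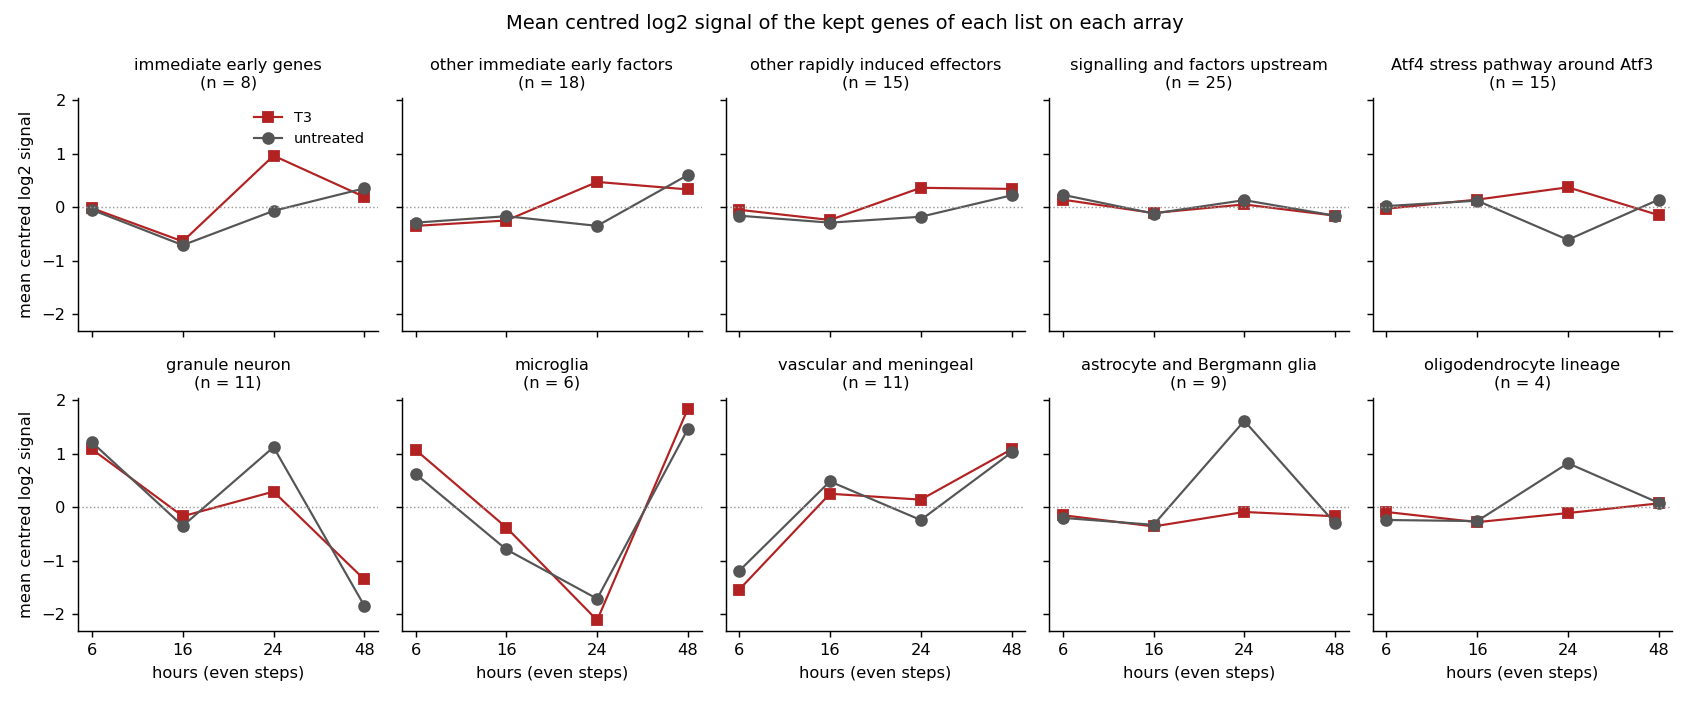
Centred log2 signal, averaged over the kept genes of each of 10 lists (n above each panel) at 6, 16, 24 and 48 h, T3 as red squares and untreated as grey circles, 1 array a point. The immediate early genes reach 0.96 on the T3 24 h array; the astrocyte and Bergmann glia markers reach 1.61 on the untreated 24 h array, and the microglia markers are lowest on both 24 h arrays.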

How the data were processed

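Expression had been measured on whole-genome mouse arrays with 1 array a condition. The table the authors deposited holds 1 signal intensity per probe-set and array, and the submitters' processing notes name GCOS and MAS5. Columns left unused number 0. Of 45101 probe-sets 64 controls were left out, 34945 of the rest carry 1 gene symbol, 932 several and 9160 none, by an older platform annotation (34741 were found in RefSeq, 0 updated). Signals were taken as log2 with a floor of 1, and probe-sets at or above the 60th percentile of the mean log2 signal (4.952) were kept. A gene is given by its brightest probe-set. The members and gene lists were chosen with earlier results of these data known.

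The T3 effect (time point as a block), the slope on log2 hours and the slope of the paired differences were fitted with limma 3.58.1 in R 4.3.3, with moderated variances and a trend on the mean (4.44, 3.01 and 3.97 prior degrees of freedom), and Benjamini-Hochberg adjustment ran over 18015 probe-sets with a threshold of 0.05. The fits were tested on simulated data. SE is the moderated standard error. Single time points were compared by the fold, with no test. Pairing comes from the stated cell batches; arrays of the same hours deviated together (r = 0.905, 0.713, 0.52 and 0.878 at 6, 16, 24 and 48 h), which can also come from the hours, and the consensus correlation was 0.569. Named genes are all members and, from each list, those past a test or beyond 2-fold or among the brightest. A few others (Dusp4, Dusp5, Dusp6, Mef2a, Mef2c, Mef2d, Bdnf, Nptx2, Inhba and Gabra6) were chosen after their values were seen. The 10 genes most like the members were ranked by correlation with their mean profile. Alternatives were quantile normalization, 32 added, no filter and the 75th percentile, no variance trend, no block, linear hours, means or a random block for time points, untreated arrays alone, 1.6-fold, the other probe-set and leaving out each time point. The number of arrays limits the precision. Motifs were searched with Python 3.11.15 in the 250 bases before each start, and pandas 2.3.3, numpy 2.4.6 and matplotlib 3.10.9 were used. Detection calls and Q-RT-PCR were not used here.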

Additional observations from a re-analysis of the deposited data

Results flagged for a closer look

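Atf3 differed in opposite directions at 2 time points: T3 minus untreated was log2 1.84 at 24 h (signals 1264.2 with T3 and 353.1 untreated) and -1.24 at 48 h (565.7 with T3 and 1334.2 untreated). The difference between the 2 time points was not tested, since each has 1 array a side. It was singled out because both differences passed 2-fold with opposite signs.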

How the results depend on the processing

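No paired analysis by replicate number was possible because each condition has 1 array. For the T3 effect and for its change with the hours, 0 member probe-sets were called under all of the alternatives run. For the T3 effect over all probe-sets the calls ranged from 0 to 2 when a time point was left out (2 without 24 h). For the hours, the 1 member call was lost with a filter at the 75th percentile, which leaves 5 member probe-sets without Junb, with the mean of each time point, hours as a random block and untreated arrays alone (0 in each), and ranged from 0 to 3 when a time point was left out. Over all probe-sets the calls were 3458, against 1323 with linear hours, 1633 with no filter, 392 with the random block and 0 with time point means or untreated arrays alone, and 0 to 7786 when a time point was left out. Members beyond 2-fold at 24 h numbered 3 with 32 added (5 as deposited), and at 48 h 1 (2 as deposited). The cause was not tested.

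Leaving out 1 time point turned signs of values that had not passed. T3 effects ranged from -0.14 to 0.10 for Egr1, -0.05 to 0.38 and -0.10 to 0.33 for the brighter and dimmer Egr2 probe-set, -0.13 to 0.35 for Dusp1 and -0.41 to 0.62 for Atf3. Slopes with the hours ranged from -0.41 to 0.37 for Fos, -0.17 to 0.40 for Nr4a1, -0.23 to 0.05 for Ier2 and -0.05 to 0.60 for Dusp1, and Nr4a1 was at 0.0017 per hour with linear hours. T3 slopes ranged from -0.27 to 0.03 for Junb, -0.06 to 0.14 for Egr1, -0.13 to 0.24 and -0.01 to 0.53 for Egr2, -0.22 to 0.67 for Nr4a1, -0.71 to 0.50 for Ier2, -0.57 to 0.33 for Dusp1 and -1.02 to 0.74 for Atf3. Fosb and Arc are too dim for a direction, and with 1 array a condition the spread between cultures is known only across time points.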
